A study of Homo sapiens with 3 samples.

Results

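The 9 genes described here bind, sense or transport zinc. They are the metallothionein genes *MT2A*, *MT1E*, *MT1X*, *MT1G*, *MT1F* and *MT1M*, the transcription factor gene *MTF1*, the zinc exporter gene *SLC30A1* and the zinc importer gene *SLC39A10*. They were found in the deposited RNA-seq table by symbol, and each symbol matched 1 of its 23131 rows. The cells were HCT-116, a colon carcinoma line with wild-type *APC* and a CTNNB1 ΔSer45 allele, which encodes a β-catenin that resists degradation. All cultures received 2 transfections on consecutive days and were harvested 48 hours after the second. The series has 3 libraries, 1 each for a pool of anti-*APC* siRNA, a pool of scrambled siRNA, and reagent without siRNA. The last is titled untransfected and its treatment label is mock, and it is called untransfected here. The scrambled control is not analysed here, and each comparison is of the anti-*APC* siRNA library, called the silenced library below, with the untransfected library. It holds any effect of siRNA delivery as well as that of *APC* silencing, and these cannot be told apart.

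Metallothioneins are small, cysteine-rich proteins that hold zinc and copper ions in clusters of thiolates, and they buffer free zinc and bind toxic metals such as cadmium. Their genes are switched on by MTF1, a zinc finger protein that senses free zinc and binds metal response elements in their promoters. SLC30A1 carries zinc out of the cell across the plasma membrane and its gene is a known MTF1 target, whereas SLC39A10 carries zinc into the cytosol and its gene is known to be repressed by MTF1 when zinc is plentiful. In the colon epithelium metallothioneins are expressed from normal crypts to tumors, and their levels vary among colon cancer lines.

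Levels are in FPKM, read fragments scaled to transcript length and to library depth. Comparison of levels between genes is approximate, since FPKM also depends on how shared reads are divided, which weighs on short, similar genes. With 1 library per condition there is no replicate error and no test, so a difference is given as both levels and the log2 ratio of anti-*APC* siRNA over untransfected. A gene was counted as higher or lower when it had at least 1 FPKM in both libraries and differed at least 1.5-fold, which is 0.58 on the log2 scale. Of 11815 genes at that level, 2.29% were higher and 5.76% were lower by this rule, and the median log2 ratio was -0.05. *APC* itself was at 3.43 FPKM in the silenced library against 9.15 FPKM, 37.5% of the untransfected level. Among 2154 rows above 0 and under 0.2 FPKM in both libraries, 355 shared the log2 ratio 0.13 within 0.002, which is the ratio of equal read numbers. Transcript lengths then place the depth near 25100000 reads in the silenced library and 27500000 reads in the untransfected one. Intervals given below are approximate exact (Clopper-Pearson) 95% intervals from the read numbers these depths imply, and they cover counting error only. HCT-116 cells showed 8 of 10 epithelial markers at 1 FPKM or more, with *VIL1* at 0.0313 and 0 FPKM (the silenced library first, as in every pair of values below) and *KRT20* at 0.718 and 0.475 FPKM. Of the other cell types, 6 immune markers summed to 0.544 and 0.433 FPKM, 4 endothelial markers to 0.102 and 0.128 FPKM, and 6 fibroblast markers to 3.13 and 2.88 FPKM, nearly all of it *COL1A1*, with *LUM* listed at 0 in both.

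The coding sequences of the 3 most abundant metallothionein genes are shown because their similarity bears on every level below. They come from the GENCODE 44 transcripts on GRCh37, and capitals mark the positions where the 3 genes are not all the same.
MT2A: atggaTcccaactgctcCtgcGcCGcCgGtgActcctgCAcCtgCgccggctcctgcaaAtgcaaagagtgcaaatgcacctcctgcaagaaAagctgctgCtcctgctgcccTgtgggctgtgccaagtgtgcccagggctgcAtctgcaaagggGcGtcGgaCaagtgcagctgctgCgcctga
MT1E: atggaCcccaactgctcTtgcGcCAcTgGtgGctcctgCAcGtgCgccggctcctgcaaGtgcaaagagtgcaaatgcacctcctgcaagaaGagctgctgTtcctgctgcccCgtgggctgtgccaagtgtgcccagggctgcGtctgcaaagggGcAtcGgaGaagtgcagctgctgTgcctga
MT1X: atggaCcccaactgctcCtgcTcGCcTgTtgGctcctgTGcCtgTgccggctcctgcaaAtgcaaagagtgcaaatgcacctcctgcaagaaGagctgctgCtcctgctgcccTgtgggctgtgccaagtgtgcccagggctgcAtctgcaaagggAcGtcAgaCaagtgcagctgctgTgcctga
Of the 186 positions, 164 are identical in all 3 genes and 22 differ. Each of the 3 sequences has 62 codons including the stop, and 20 of these are TGC or TGT, which encode cysteine. Over the 15 pairs of the 6 metallothionein genes the coding sequences are 88.7% to 93.7% identical.

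Of the 3 promoters shown next, those of *MT2A* and *MT1X* belong to metallothionein genes whose levels differed in opposite directions, and that of *SLC30A1* to the exporter gene. The sequences are from RefSeq on GRCh38.p14, from 250 bases before to 50 bases after the transcription start, and capitals mark the core of the metal response element, searched as TGCACNC and TGCGCNC on both strands.
MT2A, chr16:56608334-56608633, plus strand: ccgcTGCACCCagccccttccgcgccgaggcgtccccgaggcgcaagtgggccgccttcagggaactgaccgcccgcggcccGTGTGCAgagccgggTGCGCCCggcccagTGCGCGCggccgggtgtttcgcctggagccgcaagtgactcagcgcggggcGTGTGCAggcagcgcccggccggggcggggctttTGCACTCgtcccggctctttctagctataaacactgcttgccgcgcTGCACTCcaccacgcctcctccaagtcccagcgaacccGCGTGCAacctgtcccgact
MT1X, chr16:56682220-56682519, plus strand: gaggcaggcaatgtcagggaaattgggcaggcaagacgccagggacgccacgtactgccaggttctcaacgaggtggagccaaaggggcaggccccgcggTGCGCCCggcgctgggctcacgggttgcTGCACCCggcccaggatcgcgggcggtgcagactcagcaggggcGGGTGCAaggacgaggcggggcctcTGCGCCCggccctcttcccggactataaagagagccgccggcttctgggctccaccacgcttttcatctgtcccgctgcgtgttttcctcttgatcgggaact
SLC30A1, chr1:211579112-211579411, minus strand: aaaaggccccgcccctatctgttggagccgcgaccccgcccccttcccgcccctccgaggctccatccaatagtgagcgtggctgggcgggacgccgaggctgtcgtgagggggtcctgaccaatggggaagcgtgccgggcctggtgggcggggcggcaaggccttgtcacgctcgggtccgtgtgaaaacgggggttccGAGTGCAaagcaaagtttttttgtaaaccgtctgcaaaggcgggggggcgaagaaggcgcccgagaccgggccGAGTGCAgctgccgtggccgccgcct
*MT2A* has 8 matches and *MT1X* has 4, while *SLC30A1* has 2. Among 35116 promoters of the same length, 29.6% have at least 1 match, 8.60% at least 2, 0.601% at least 4 and 0.0484% at least 7. *MTF1* has no match, and of the pair of entries for *SLC39A10* one has none and the other has 1. RefSeq entries were matched for 5 of the 9 genes, and not for *MT1E*, *MT1G*, *MT1F* and *MT1M*. The AP-1 motif, searched as TGACTCA or TGAGTCA, occurs in 4.95% of promoters and once in that of *MT2A*, beginning at base -104 and clear of the metal response cores. It has no match in the promoters of *MT1X*, *MTF1* and *SLC30A1* or in either entry for *SLC39A10*. The TCF7L2 motif, searched as WWCAAAG with W for A or T, occurs in 13.8% of promoters and in none of those of the 5 genes. A match is a stretch of letters and was not tested as a binding site.

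*MT2A*, the gene of the main metallothionein of most human tissues, was the most abundant of the 9 genes and was lower with anti-*APC* siRNA. It had 412 FPKM in the silenced library against 623 FPKM, which is 66.2% of the untransfected level. It ranked 163 of all rows by level in the untransfected library and 222 in the anti-*APC* library. The log2 ratio was -0.60 (interval -0.67 to -0.52, from about 2080 and 3443 reads), and 5.56% of the 11815 genes had a lower ratio. The 1.51-fold difference only just passes the threshold of 1.5, and the interval holds values on both sides of it. Subtracting the median of all genes took it to -0.55, under the threshold. Subtracting the median of genes of similar level took it to -0.62, past the threshold.

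*MT1E*, the most abundant of the MT1 genes, had 258 FPKM in the silenced library against 350 FPKM. It was thus lower too, at 73.8% of the untransfected level, but did not reach 1.5-fold. Its log2 ratio was -0.44 (interval -0.52 to -0.36). *MT1X* went the other way, with 90.0 FPKM in the silenced library against 68.1 FPKM. The difference was 1.32-fold and the log2 ratio 0.40 (interval 0.20 to 0.60), under the threshold, and 4.43% of genes had a higher ratio. The intervals of *MT2A* and *MT1E* lay wholly below 0 and that of *MT1X* wholly above it.

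The other 3 metallothionein genes had far lower levels and wider intervals. *MT1G* had 9.62 FPKM in the silenced library against 14.8 FPKM, which is 65.1% of the untransfected level and past the threshold. Its log2 ratio was -0.62 (interval -1.17 to -0.09, from about 48 and 81 reads), and subtracting the median of all genes took it to -0.57, under the threshold. *MT1F* had 6.89 FPKM in the silenced library against 4.27 FPKM, 1.61-fold higher and past the threshold. Its log2 ratio was 0.69, the highest of the 9 genes, but the interval of -0.04 to 1.49, from about 39 and 26 reads, includes 0, and with 1 FPKM added to both levels the ratio just missed the threshold. *MT1M* had 1.70 FPKM in the silenced library against 2.30 FPKM, and its log2 ratio of -0.44 has an interval of -1.95 to 0.96 from about 8 and 12 reads. No difference in *MT1M* could be detected at this depth.

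**Figure D1:**
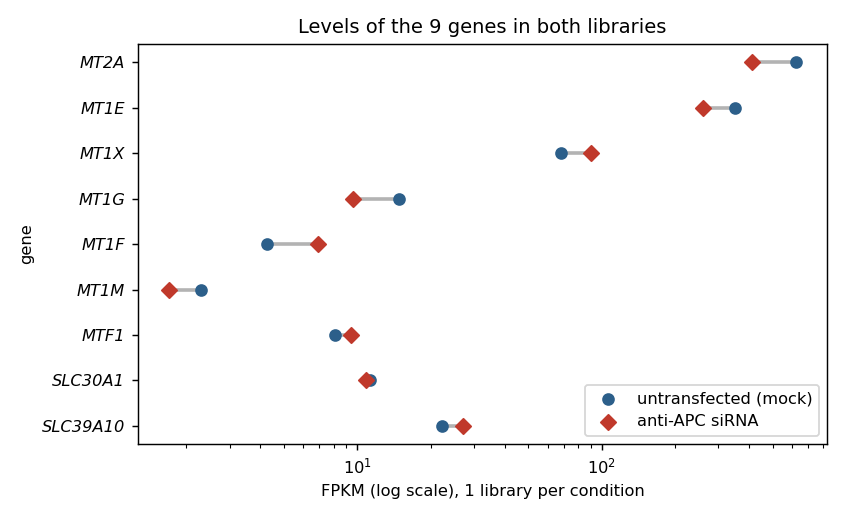
FPKM (log axis) of the 9 genes in the anti-*APC* siRNA library (red diamonds) and the untransfected library (blue circles), 1 library each, with a grey line between the 2 values of a gene. *MT2A* at 412 and 623 FPKM and *MT1E* at 258 and 350 FPKM are far above the rest, and the diamond lies to the right of the circle for *MT1X*, *MT1F*, *MTF1* and *SLC39A10*.

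Of the 9 genes, all of which had at least 1 FPKM in both libraries, 1 was at least 1.5-fold higher (*MT1F*), where 2.29% of all genes were, and 2 were lower (*MT2A* and *MT1G*), where 5.76% were. In either direction this made 3 of 9, beside 8.04% of all genes. A ratio above 1 was seen in 4 of the 9, where 41.6% of genes had one, and a ratio below 1 in 5, where 58.4% did. The 6 metallothionein genes had a median log2 ratio of -0.44, with 4 below 0 and 2 above. Of 10 epithelial markers, *KRT20* (0.718 and 0.475 FPKM) and *VIL1* (0.0313 and 0 FPKM), both under 1 FPKM, were higher in the silenced library. All 8 with at least 1 FPKM had a ratio below 1, from -0.87 (*CLDN3*) to -0.12 (*CDX2*) with a median of -0.43. The 10 markers summed to 1322 FPKM in the silenced library against 1697 FPKM. Their part in the metallothionein levels was not tested. In RNA from whole cultures, fewer cells that express a gene and less RNA per cell cannot be told apart.

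**Figure D2:**
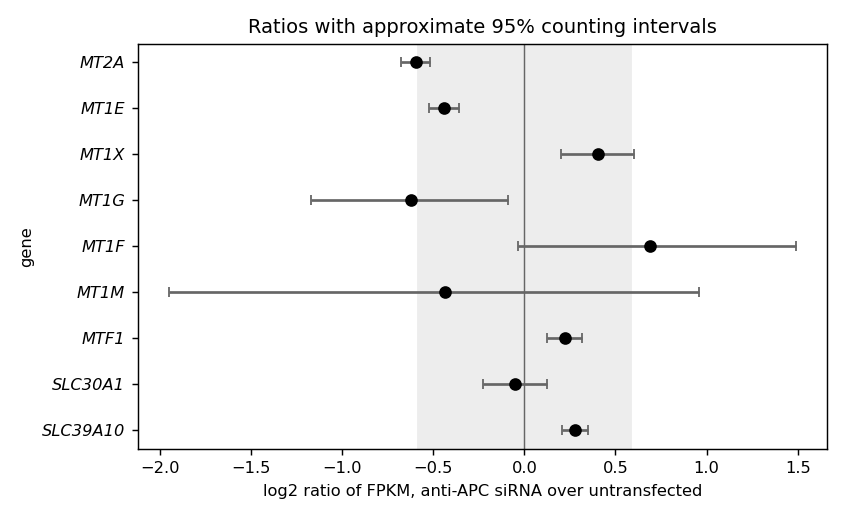
Log2 ratio of FPKM (anti-*APC* siRNA over untransfected) of the 9 genes as points, with bars for the approximate 95% counting interval and grey shading for differences under 1.5-fold. The bars of *MT2A*, *MT1E* and *MT1G* lie below 0, those of *MT1X*, *MTF1* and *SLC39A10* above 0, and those of *MT1F*, *MT1M* and *SLC30A1* cross it.

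Summed over the 13 rows of the MT1 and MT2A genes and pseudogenes, the level was 795 FPKM in the silenced library against 1084 FPKM, 73.4% of the untransfected level and a log2 ratio of -0.45. The sum is less dependent than any single row on how reads were divided within the family. Without *MT2A* it came to 383 against 461 FPKM, a log2 ratio of -0.27, so *MT2A* carried most of the difference. Within the 6 genes *MT2A* made up 53.0% of the FPKM in the silenced library and 58.6% in the untransfected one, and *MT1E* 33.2% and 32.9%. *MT1X* took 11.6% in the silenced library and 6.41% in the untransfected one. In this pair of libraries the summed FPKM was thus lower with anti-*APC* siRNA, and *MT1X* made up a larger share of that of the 6 genes. These are RNA levels without an interval, and the share of *MT1X* depends on how shared reads were divided.

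All 9 genes are alone at their locus in the table, so none shares a Cuffdiff locus with another row. Reads could still be ambiguous between metallothionein genes, because their transcripts hold identical stretches. Of all windows of 36 bases, 32.2% in *MT1M*, 27.2% in *MT1G*, 22.0% in *MT1X*, 21.3% in *MT2A*, 11.5% in *MT1E* and 11.0% in *MT1F* also occur in another MT1 or MT2 gene or pseudogene. With windows of 50 bases these shares were 14.6%, 19.9%, 18.0%, 10.2%, 5.34% and 6.12%. *MT1X* shares 61 windows of 36 bases with *MT1G* and 40 with *MT2A*, and *MT1M* shares 87 with the pseudogene *MT1JP*. How far the division of shared reads set the levels of single genes was not tested, and the read length is not given in the sources used here. The transcripts compared extend beyond the locus listed in the table for *SLC30A1*, with 2018 of 5893 bases inside it, for *MT1E*, with 506 of 704, and for *MT1G*, with 399 of 410. GENCODE also annotates a long noncoding RNA on the strand of *MT1X* that begins at the same base and holds 131 of its 369 windows of 36 bases. With every other gene counted, 46.6% of the *MT1X* windows of 36 bases and 49.0% of those of 50 bases are its own. These are the lowest shares of the 9 genes, beside 74.0% and 88.9% in *MT2A*. The transcripts of *SLC30A1* and *SLC39A10* share no window of either length with another gene, and 98.2% of those of *MTF1* are its own at 36 bases.

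The metallothionein genes lie together on chromosome 16 (hg19), where the 15 rows of the family span 117 kb of locus starts. *MT2A* is at chr16:56642478-56643409, *MT1E* at chr16:56659585-56661024, *MT1M* at chr16:56666534-56667898, *MT1F* at chr16:56691855-56693215, *MT1G* at chr16:56700653-56701977 and *MT1X* at chr16:56716382-56718108. All have 3 exons in the annotation, and *MT1G* is read from the minus strand. Rows listed at 0 in both libraries were *MT3*, *MT4*, *MT1H* and *MT1IP*. *MT1A* had 0.103 FPKM with anti-*APC* siRNA and is listed at 0 without. Of the 8 family rows with at least 1 FPKM in both libraries, 6 had a ratio below 1 and 2 above, the 2 being *MT1F* and *MT1X*. The 6 include the pseudogene *MT1JP*, the most abundant family row beyond the 6 genes described, with 13.3 FPKM in the silenced library against 17.3 FPKM. They also include *MT1B*, named after its values were seen, with 2.45 and 3.38 FPKM. The rows from *MT2A* to *MT1B* with at least 1 FPKM in both libraries all had ratios below 1, and such rows after *MT1B* alternated. Among the former, the interval of *MT1M* includes 0, and none was computed for *MT1JP* and *MT1B*. *MT1G*, past the threshold with a ratio below 1, lies between *MT1F* and *MT1X*, of which *MT1X* was under the threshold and *MT1F* past it with an interval that includes 0.

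**Figure D3:**
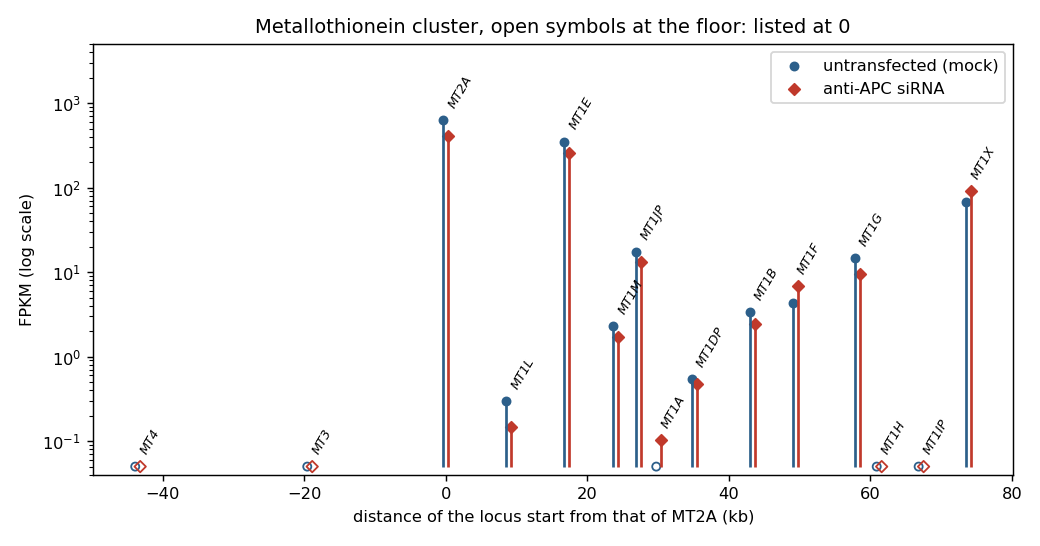
FPKM (log axis) of the 15 metallothionein rows in the anti-*APC* siRNA (red diamonds) and untransfected (blue circles) libraries against the distance of each locus start from that of *MT2A* in kb, the 2 symbols of a row set slightly apart. Open symbols at the floor mark values listed at 0, and only *MT1F* at 49.4 kb and *MT1X* at 73.9 kb have the red symbol above the blue one among rows above 0 in both.

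Genes around the cluster did not share one direction. Of 9 neighbours listed, 6 had at least 1 FPKM in both libraries, with 3 ratios above and 3 below 1 and a median of 0.00. The highest was *HERPUD1*, an endoplasmic reticulum stress gene, with 21.0 FPKM in the silenced library against 18.0 FPKM. The lowest was *NUP93*, a nuclear pore gene and the first listed neighbour beyond *MT1X*, with 46.3 and 71.6 FPKM, a log2 ratio of -0.63 and past the threshold. *BBS2*, the nearest listed neighbour on the other side, had 7.44 and 9.40 FPKM.

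*MTF1*, at chr1:38275239-38325292, had 9.42 FPKM in the silenced library against 8.07 FPKM. It was slightly higher, 1.17-fold, with a log2 ratio of 0.22 (interval 0.13 to 0.32) that is under the threshold and lies above the upper quartile of all genes, 0.11. The sensor was thus expressed at a level between *MT1F* and *MT1G*, and in the anti-*APC* library it stood on the opposite side of 1 from *MT2A*. Its transcript level says nothing of its activity, which depends on zinc and on entry into the nucleus. Of 8 genes listed around the *MTF1*, *SLC30A1* and *SLC39A10* loci, 6 reached 1 FPKM in the pair and none passed the threshold. Their ratios were 3 above and 3 below 1, with a median log2 ratio of -0.03. The highest and the lowest both lie near *MTF1*. The adjoining *YRDC*, a tRNA modification gene, had 29.0 and 23.3 FPKM, a log2 ratio of 0.31, at a locus shared with *C1orf122*, which had 34.6 and 38.4 FPKM. *FHL3*, a LIM domain gene, was lowest with 9.56 and 11.6 FPKM, a log2 ratio of -0.28.

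Of the other genes known to respond to metals or oxidative stress, 4 of 5 symbols had a row and none was past the threshold. Their median log2 ratio was 0.15. *HMOX1*, the haem oxygenase gene induced by heavy metals, was highest, with 33.6 FPKM in the silenced library against 22.9 FPKM, a log2 ratio of 0.55. *GCLC*, which encodes a glutathione synthesis enzyme and is an MTF1 target in mouse, was lowest, with 29.3 and 32.0 FPKM.

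*SLC30A1*, at chr1:211748381-211752099, had 10.9 FPKM in the silenced library against 11.2 FPKM. The levels were nearly equal, with a log2 ratio of -0.05 (interval -0.23 to 0.13) close to the median of all genes, so a difference beyond that interval was not seen in this pair of libraries. Among the other 9 exporter genes of the SLC30 family, 6 passed 1 FPKM in the pair. Their median log2 ratio was -0.09, and 5 of the 6 had a ratio below 1. *SLC30A9*, the most abundant, had 35.1 FPKM in the silenced library against 37.0 FPKM. *SLC30A4*, a transporter of endosomes and secretory vesicles, was the one past the threshold, with 1.01 and 1.54 FPKM and a log2 ratio of -0.60. It only just passes both the minimum of 1 FPKM and the threshold of 1.5-fold, and no interval was computed for it. It shares its locus with *HMGN2P46*, which had 2.37 and 2.15 FPKM.

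*SLC39A10*, at chr2:196521532-196602426, had 27.0 FPKM in the silenced library against 22.3 FPKM. It was 1.21-fold higher, a log2 ratio of 0.28 (interval 0.21 to 0.35) that is under the threshold, and 9.01% of genes had a higher ratio. Among the other 13 importer genes of the SLC39 family, 10 had at least 1 FPKM in both libraries, none was past the threshold, and the median was -0.05 with 4 ratios above and 6 below 1. *SLC39A6*, the closest relative of *SLC39A10* and the most abundant importer, had 96.2 FPKM in the silenced library against 82.0 FPKM, a log2 ratio of 0.23. The ends of the list, named after their values were seen, were *SLC39A8* with 23.8 and 18.2 FPKM and *SLC39A11* with 9.51 and 12.7 FPKM. *SLC39A5* and its locus partner *ANKRD52* are among the 269 rows that Cuffdiff marked as failed, and their value of 0 in both libraries is not a measured absence.

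Copper binds the same metallothioneins, so the copper genes were set beside them. All 11 had at least 1 FPKM in both libraries, with a median log2 ratio of -0.03, 1 gene past the threshold and 8 ratios below 1. *ATOX1*, the chaperone that hands copper to the secretory pathway, was highest, with 93.8 FPKM in the silenced library against 67.0 FPKM. *SCO2*, an assembly factor of cytochrome c oxidase, was lowest, with 4.56 and 7.55 FPKM and a log2 ratio of -0.73, at a locus shared with *TYMP* and *NCAPH2*.

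Ordered by level in untransfected cells, the 9 genes ran from *MT2A* through *MT1E*, *MT1X*, *SLC39A10*, *MT1G*, *SLC30A1*, *MTF1* and *MT1F* to *MT1M*. With anti-*APC* siRNA the order was the same except that *MT1G*, at 9.62 FPKM, stood below *SLC30A1* at 10.9 FPKM. No spread between replicates is available to say which neighbours in this order differ.

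**Figure D4:**
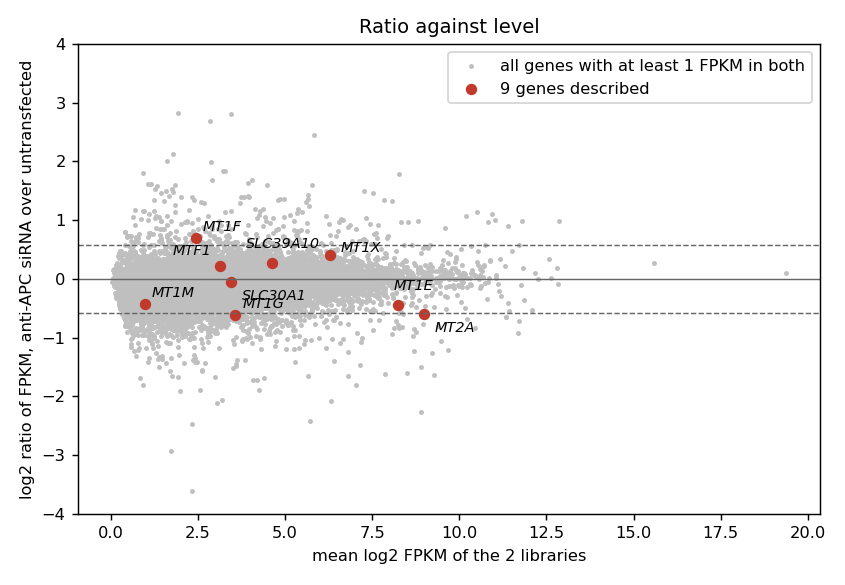
Log2 ratio of FPKM (anti-*APC* siRNA over untransfected) against the mean log2 FPKM of the 2 libraries for 11815 genes with at least 1 FPKM in both (grey), with the 9 genes in red, a line at 0 and dashed lines at 1.5-fold. *MT2A* at -0.60 and *MT1E* at -0.44 lie to the right, with *MT2A* on the lower dashed line, and *MT1F* at 0.69 lies above the upper dashed line.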

How the data were processed

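RNA-seq levels of HCT-116 cells were taken from the table the authors deposited, which holds FPKM for 1 anti-*APC* siRNA library and 1 untransfected (mock) library. Per the labels and the paper, single-read TruSeq libraries were sequenced, and reads were assigned with Cufflinks and compared with Cuffdiff on hg19, as the submitters' processing notes name it. Versions, aligner, annotation and read length are not given in the sources used here. FPKM from Cufflinks depends on transcript length and on how shared reads are divided, which weighs on short, similar genes. The table also holds the authors' natural log fold change, test statistic, *p*-value and *q*-value. These were not used, and no test was made, since each condition has 1 library. Loci were written 1-based, with 1 added to the start.

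Ratios were computed without a pseudocount. Read numbers were approximated from the FPKM, the depth and the exon bases inside each listed locus less an assumed fragment of 200 bases. The depth is the mode over 34 single-transcript genes at the 1-read ratio, 11 of them in the modal bin. Windows of 36 and 50 bases were compared with all GENCODE 44 transcripts.

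The 9 genes and all lists were chosen with earlier results of these data known. Genes named are the 9, *APC*, rows sharing a locus with the 9, zinc transporters and metallothioneins past 1.5-fold, the most abundant of each such list, and the highest and lowest of each other list. *MT1A*, *MT1B*, *MT1H*, *MT1IP*, *MT3*, *MT4*, *BBS2*, *SLC39A5*, *SLC39A8*, *SLC39A11*, the locus partners *HMGN2P46*, *C1orf122*, *TYMP*, *NCAPH2* and *ANKRD52*, and the single markers *VIL1*, *KRT20*, *COL1A1* and *LUM* fall outside this rule and were named after their values were seen. Calls and the log2 ratio of equal read numbers were checked on simulated data. Depths, and so the read numbers and intervals that rest on them, were not checked in this way. Alternatives were other fold and FPKM minimums, pseudocounts and centring. Sums within part of the family were added after the values were seen. Versions were matplotlib 3.10.9, Biopython 1.88, scipy 1.17.1, pandas 2.3.3, numpy 2.4.6 and Python 3.11.15.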

Additional observations from a re-analysis of the deposited data

How the results depend on the processing

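With a log2 threshold of 0.32 in place of 0.58, 2 of the 9 genes were higher and 4 were lower, and with 2-fold 0 were higher and 0 lower. A minimum of 5 FPKM left 7 of the 9 genes and 0 higher, because *MT1F*, at 4.27 FPKM in the untransfected library, fell below that minimum. Median centring left 0 lower, with *MT2A* at -0.55 and *MT1G* at -0.57 on the log2 scale. Centring on genes of similar level, in 20 bins, went the other way for *MT2A*, to -0.62. It took *MT1F* to 0.80 and left *MT1G* at -0.578, just under the threshold. A pseudocount of 1 FPKM left 0 higher and 1 lower (*MT2A*), as *MT1G* and *MT1F* then fell just short. The calls on these 3 genes thus rest on differences near the threshold. Neither pseudocounts nor centring moved the log2 ratio of any of the 9 genes beyond its counting interval. The summed metallothionein level without *MT2A* had a log2 ratio of -0.27, an alternative added after the values were seen. Over all genes, 810 were higher and 2065 lower at that lower threshold, 88 and 121 at 2-fold, 551 and 1387 with a minimum of 0.1 FPKM, and 153 and 286 with 5 FPKM. A pseudocount of 1 FPKM gave 413 lower, and rows alone at their locus 160 higher. The other 93 values moved less: counts stayed within 1.5 times and ratios of the 9 genes within their counting interval. Apart from the sum without *MT2A*, the summed ratio, which has no interval, moved by less than the counting error of *MT2A*. List medians moved by less than the counting error typical of a single gene of the list, a wide limit. Medians near 0 did not keep their sign. Median centring turned that of the copper genes from -0.03 to 0.02 and that of the genes around the *MTF1*, *SLC30A1* and *SLC39A10* loci from -0.03 to 0.02, and a minimum of 0.1 FPKM took the latter to -0.13. The medians of the other lists kept their sign under the same alternatives. No paired analysis was possible because each condition has 1 library and the result comes from no test. For the same reason no library could be left out. Scrambled siRNA in place of the untransfected control was not run, since it is not analysed here.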
